A study of Danio rerio with 12 samples.

Results

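The comparison of homozygous ercc2/xpd mutant larvae with their sibling larvae at 7 days post-fertilization (dpf) is described here. It rests on 6 RNA-seq libraries of whole zebrafish larvae of the AB strain, 3 of mutants (genotype ercc2/xpd -/-) and 3 of siblings (ercc2/xpd+/+ & ercc2/xpd+/-), each a pool of 30 larvae. The same genotypes were also sequenced at 5 dpf, 3 libraries a group, and those 6 libraries entered the estimate of spread. Levels are in FPKM, fragments counted per kilobase of transcript and scaled by a factor of each library. Of the 37541 gene identifiers in the files, 21948 (58.5%) reached 0.5 FPKM in at least 3 of the 6 libraries of 7 dpf and were compared. The siblings mix wild-type and heterozygous larvae, and the mutants carry a short CRISPR/Cas9 deletion near the end of the coding sequence that is predicted to truncate the protein while the transcript is still made. As a general step the paper kept embryos in phenylthiourea against pigmentation, and it does not say whether these pools were treated. Nothing in the sources used here says that the pools came from separate crosses, so a p-value covers only how far these pools vary.

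ercc2/xpd encodes a DNA helicase of TFIIH, the complex that opens promoters for RNA polymerase II and unwinds damaged DNA in nucleotide excision repair. At this age a zebrafish larva has used most of its yolk, and its liver, pancreas and gut make the enzymes, carriers and plasma proteins that feeding requires. A library of whole larvae averages over all of these tissues, so fewer cells of a type and less RNA per cell cannot be told apart.

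The libraries of 7 dpf held 13403615 to 15084280 recovered reads each. On the first principal component of their log2 values, which held 46.8% of the variance, the mutant libraries lay between −50.2 and −26.6 and the sibling libraries between 38.0 and 41.2. The second component (19.0%) spread the mutant libraries, from 46.2 in library 1 through 6.25 in library 2 to −39.5 in library 3, while the sibling libraries lay between −12.6 and 0.0844. The targeted gene itself, listed as ERCC2 (chromosome 15 of GRCz11 from 23680018 to 23692359), stood at 3.57, 2.96 and 3.07 FPKM in the mutant libraries, against 6.38, 4.26 and 5.06 FPKM in the sibling libraries, with no overlap and an adjusted p of 0.057. Some genes of muscle, retina, liver, gut and exocrine pancreas were detected in every sibling library. The genes with the highest mutant means coded for muscle proteins (pvalb1, actc1b, ckmb) and for mitochondrial cytochrome oxidase (MT-CO1, MT-CO2, MT-CO3), and none of the 6 passed the test. In siblings the same genes led except that prss1, the trypsin gene, took the place of ckmb.

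Of the 21948 genes, 448 (2.04%) were higher and 792 (3.61%) were lower in mutants than in siblings by limma on log2(FPKM + 0.5), with a Benjamini-Hochberg adjusted p under 0.05 taken as a call. Every adjusted p below comes from that fit unless another is named, and every fold change is a difference on that log2 scale with its standard error (SE), a scale on which the change of a low gene comes out too small. Counts of each list below that come from this fit at 7 dpf stand against these shares of 2.04% higher and 3.61% lower. Other counts have other totals over the same genes. At an unadjusted p under 0.05 there were 4453 genes in either direction. By voom 342 were higher and 778 lower, and with library weights 1087 and 1426. At 5 dpf 154 were higher and 501 lower. The totals as TPM and by total reads are given below. The median over all genes tested was 0.0088. The deposited values were scaled by the median ratio of genes between libraries, which holds this median near 0. Expressed as TPM the split was 1431 higher to 513 lower, and scaled by total reads 1362 to 569, with the median of all genes moved to 0.19 and 0.16. All 448 higher genes were called under both of these scalings, as were 512 (TPM) and 567 (total reads) of the 792 lower genes, and none of them turned sign. The falls were the larger changes. Of the lower genes 510 differed by at least 1 on the log2 scale, 83 by at least 3 and 34 by at least 4, while of the higher genes 178, 4 and 0 did so. The 3 libraries of a genotype did not overlap with those of the other for 445 of the 448 higher and 790 of the 792 lower genes. Over all genes tested, 12.8% lay apart with mutants higher and 13.4% with mutants lower. Among the called genes, 38 higher and 108 lower ones passed the filter on low values only through the group in which they were higher. Calls in both directions were more frequent at high levels. Among the 20% of genes with the highest mean FPKM 2.73% were higher and 5.99% lower, and among the 20% with the lowest 1.16% were higher and 2.30% lower. The 792 lower genes made up 3.06%, 2.16% and 1.99% of the summed FPKM of the mutant libraries, against 9.44%, 10.3% and 11.5% in the sibling libraries. The 448 higher genes made up 1.69%, 1.63% and 1.41% in mutants, against 0.673%, 0.665% and 0.664% in siblings.

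**Figure D1:**
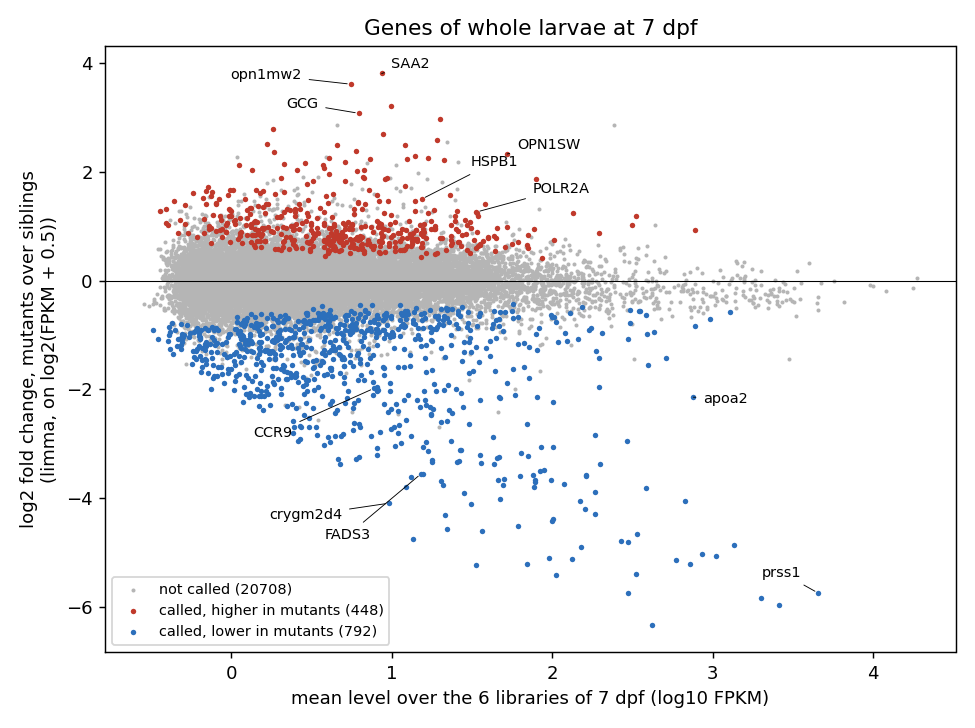
Each point is 1 of the 21948 genes tested, placed by its mean level over the 6 libraries of 7 dpf (log10 FPKM, horizontal) and its log2 fold change of mutants over siblings (vertical). The 448 called higher genes (red) stay below 4, while the 792 called lower genes (blue) reach −6.32, and many of the steepest falls are of genes with high levels.

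Genes of digestive enzymes held the steepest median fall of the lists. Of 34 exocrine pancreas enzyme genes tested, 32 (94.1%) were lower and none higher by limma (0 higher at an unadjusted p under 0.05, and 0 by voom), with a median log2 fold change of −4.46 against 0.0088 over all genes. All 38 matched enzyme genes, tested or not, held 0.546%, 0.0864% and 0.0660% of the summed FPKM in the mutant libraries, against 4.23%, 5.01% and 5.58% in the sibling libraries. prss59.2, a serine protease gene of the trypsin family (chromosome 16 of GRCz11 from 26017360 to 26018694), had 462, 34.7 and 30.8 FPKM in mutants, against 4373, 5106 and 5554 FPKM in siblings. Its log2 fold change was −5.96 (SE 0.91, adjusted p = 0.0022). Mutant library 1 kept more than 10 times the level of the other 2 mutant libraries and still lay below every sibling library. The astacin-like metalloproteases c6ast4 and c6ast3, both on chromosome 7, fell by 5.75 and 5.21 (log2). The elastase CELA1 on chromosome 22 fell by 5.39. Genes for both copies of syncollin (SYCN, a zymogen granule protein) fell by 4.19 and 3.68, and the bile salt-activated lipase CEL, also present in more than 1 copy, by 4.65 and 4.42. These families hold similar copies, and the sources do not state how reads that match several copies were counted.

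Transcription factor genes of the acinar cell, which are known to switch on the enzymes, had smaller fold changes on the log2(FPKM + 0.5) scale than the enzymes. Of 12 genes for acinar secretion and identity, 3 were lower and the median was −0.38. PTF1A, which directs pancreas formation and acinar gene expression, stood at 0.478, 0.835 and 1.10 FPKM in mutants, against 1.62, 5.69 and 5.55 FPKM in siblings (−1.75, SE 0.38, adjusted p = 0.017). Its partner RBPJL, which passed the filter on low values only through the siblings, was at 0.150, 0.0717 and 0.217 FPKM in mutants, against 0.584, 1.503 and 1.15 FPKM in siblings (−1.25, adjusted p = 0.016). NR5A2, a nuclear receptor of pancreas, liver and gut, was at 1.49 to 1.74 FPKM in mutants, against 2.58 to 2.93 FPKM in siblings (−0.63, adjusted p = 0.049). The levels of all 3 genes are low. On this scale genes so low in siblings could not have reached the enzyme median of −4.46 even at 0 FPKM in mutants. The smaller fold changes therefore do not show that these genes fell less than the enzymes. The count of lower genes in the list was 0 without mutant library 2, sibling library 2 or sibling library 3 and with only the 6 libraries of 7 dpf, 1 without mutant library 1, and 2 without mutant library 3 or sibling library 1.

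Several hormone genes of the islets were higher in mutants. Of 19 endocrine pancreas genes 5 were higher and none lower by limma (1 lower at an unadjusted p under 0.05, 0 by voom), with a median of 0.33, and the count of higher genes was 4 to 6 in all alternatives. Glucagon, the hormone that raises blood glucose, has separate genes in these files. The gene listed as GCG (chromosome 9 of GRCz11 from 51265283 to 51271597) had 15.7, 10.5 and 8.55 FPKM in mutants, against 0.897, 1.17 and 0.656 FPKM in siblings, a log2 fold change of 3.08 (SE 0.36, adjusted p = 3.2e-04). The gene gcga on chromosome 22 had 8.17, 6.78 and 11.1 FPKM in mutants, against 1.11, 1.99 and 1.44 FPKM in siblings (2.18, SE 0.21, adjusted p = 8.8e-05). Every mutant library lay above every sibling library for both genes. The somatostatin gene sst2, whose product restrains other hormones, stood at 7.31, 5.96 and 5.85 FPKM in mutants, against 0.986, 1.86 and 0.721 FPKM in siblings (2.08, SE 0.31, adjusted p = 0.0017). sst1.2, also of the somatostatin family, rose by 1.32 (adjusted p = 0.0031). The appetite hormone gene ghrl (ghrelin) rose by 1.42 (adjusted p = 0.036, and 0.14 without mutant library 2). Insulin (ins) gave no such reading. It was at 1.44, 1.87 and 2.12 FPKM in mutants and at 0, 5.55 and 0 FPKM in siblings, so that the groups overlapped and the test was not passed (adjusted p = 0.49).

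Most genes for absorption in the gut were lower in mutants. Of 60 brush border and absorption genes, 44 (73.3%) were lower and none higher by limma (1 higher at an unadjusted p under 0.05, 0 by voom). The median was −1.45, and 36 to 47 were lower across the alternatives. amn and CUBN code for the partners of the receptor that takes up vitamin B12 with its carrier and, in kidney, filtered protein. amn stood at 0.853, 1.29 and 1.03 FPKM in mutants, against 7.69, 5.68 and 5.55 FPKM in siblings (−2.12, SE 0.26, adjusted p = 4.4e-04). CUBN, which passed the filter on low values only through the siblings, stood at 0.333, 0.490 and 0.195 FPKM in mutants, against 3.63, 2.72 and 1.69 FPKM in siblings (−1.89, SE 0.30, adjusted p = 0.0029). RBP2, which binds retinol in enterocytes, is a case where a single library matters. It had 5.32, 1.18 and 0.767 FPKM in mutants, against 5.22, 42.2 and 52.0 FPKM in siblings, so sibling library 1 lay below mutant library 1 (−3.34, adjusted p = 0.021, and 0.091 with only the 6 libraries of 7 dpf). Among the 44 lower genes were peptidases, namely the gene copies listed as ANPEP (−2.29 and −2.24) and the dipeptidase DPEP1 (−2.56). The lysosomal protease gene ctsbb had 1.42, 3.56 and 1.57 FPKM in mutants, against 30.04, 18.8 and 13.3 FPKM in siblings (−2.99, SE 0.41, adjusted p = 0.0010).

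Among 20 goblet and enteroendocrine genes 3 were higher (GCG, ghrl and PYY) and 1 lower, with a median of 0.14. PYY, a hormone of endocrine cells of gut and pancreas that curbs feeding, had 12.7, 10.01 and 10.6 FPKM in mutants, against 4.49, 3.48 and 1.94 FPKM in siblings (1.66, SE 0.32, adjusted p = 0.0093). The mucin gene muc13b had 4.61, 4.07 and 3.37 FPKM in mutants, against 10.3, 12.2 and 8.33 FPKM in siblings (−1.25, adjusted p = 0.025, and 0.10 without sibling library 2). The higher count of this list was 2 without mutant library 2, sibling library 2 or sibling library 3 and 5 as TPM, and the lower count 0 without mutant library 2 or 3 or sibling library 1 or 2. CARTPT, a neuropeptide gene known for its part in satiety and not a member of that list, ranked among the largest increases. It had 22.7, 11.1 and 13.6 FPKM in mutants, against 2.30, 1.84 and 1.61 FPKM in siblings (2.70, SE 0.28, adjusted p = 1.5e-04).

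Of 42 genes of hepatocyte secreted and binding proteins 22 (52.4%) were lower and none higher by limma, with a median of −0.91. At an unadjusted p under 0.05 there were 3 higher, by voom 0, and as TPM or by total reads 2. fetub, a liver-made protease inhibitor of the fetuin family (chromosome 22 of GRCz11 from 37888249 to 37900135), had 85.1, 49.7 and 29.0 FPKM in mutants, against 565, 723 and 866 FPKM in siblings (−3.82, SE 0.31, adjusted p = 4.4e-05). The list also holds uox, an enzyme inside the cell that breaks down uric acid, which was at 7.61, 8.34 and 8.07 FPKM in mutants, against 48.6, 49.7 and 59.1 FPKM in siblings (−2.63, SE 0.17, adjusted p = 1.5e-05). The vitamin D carrier GC had 14.9, 20.7 and 15.5 FPKM in mutants, against 66.1, 77.8 and 83.8 FPKM in siblings (−2.13, SE 0.23, adjusted p = 1.9e-04). TTR, the carrier of thyroid hormone and of the retinol-binding protein, had 6.86, 11 and 9.39 FPKM in mutants, against 25.9, 35.9 and 46.6 FPKM in siblings (−1.92, SE 0.26, adjusted p = 9.2e-04). In all 4 genes the mutant libraries lay below all sibling libraries.

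Complement and clotting factors, which the liver also secretes, fell in number. Of 38 genes 21 (55.3%) were lower and none higher by limma (2 higher at an unadjusted p under 0.05, 0 by voom, 1 as TPM, by total reads and without sibling library 3), with a median of −1.08. c9, the pore-forming last component of complement (chromosome 5 of GRCz11 from 32345187 to 32355289), had 10.2, 10.3 and 6.75 FPKM in mutants, against 42.2, 45.1 and 53.5 FPKM in siblings (−2.32, SE 0.18, adjusted p = 4.0e-05). c3a.3, a copy of the central component C3, had 3.56, 3.67 and 2.31 FPKM in mutants, against 16.2, 17.7 and 22.5 FPKM in siblings (−2.40, SE 0.21, adjusted p = 4.9e-05). The copies c3a.1, c3a.2 and c3a.3 are all on chromosome 1 and fell, by 1.19, 2.38 and 2.40. The groups of these genes lay apart. Clotting was represented by F7, the factor that starts the cascade with tissue factor, at 0.567, 0.934 and 0.654 FPKM in mutants, against 3.999, 4.02 and 3.24 FPKM in siblings (−1.81, SE 0.20, adjusted p = 2.3e-04). The 3 fibrinogen chains FGG, fga and FGB fell by 1.39, 1.32 and 1.13, and plasminogen (PLG), which dissolves clots, by 1.65.

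Lipid genes moved in both directions. Of 34 genes of apolipoproteins and lipoprotein assembly 8 were lower and 2 higher, with a median of −0.32, and the higher count was 1 without mutant library 1, mutant library 2, sibling library 2 or sibling library 3. apoa1b, an apolipoprotein of high-density particles, had 109.8, 81.2 and 32.1 FPKM in mutants, against 483, 553 and 494 FPKM in siblings (−2.94, SE 0.35, adjusted p = 3.5e-04). apoa2 remained abundant and was lower, at 311, 356 and 195 FPKM in mutants, against 1156, 1286 and 1253 FPKM in siblings (−2.14, SE 0.33, adjusted p = 0.0022). Both had nonoverlapping groups. The 2 higher genes were LPL, the lipase that frees fatty acids from lipoproteins (1.09, adjusted p = 0.011), and apoeb, an apolipoprotein E that macrophages also make (0.92). Of 29 genes of bile acid synthesis and transport 10 were lower and none higher by limma (4 higher at an unadjusted p under 0.05, 0 by voom, 3 as TPM), with a median of −0.38. They included slco1d1, an organic anion carrier, at 4.13, 4.28 and 3.32 FPKM in mutants, against 16.3, 16.1 and 14.8 FPKM in siblings (−1.89, SE 0.15, adjusted p = 4.4e-05).

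The smallest adjusted p of the comparison belonged to the gene listed as FADS3, of the fatty acid desaturase family (chromosome 25 of GRCz11 from 4133488 to 4148719). It had 2.25, 1.75 and 1.85 FPKM in mutants, against 21.99, 35.2 and 28.5 FPKM in siblings (−3.55, SE 0.19, adjusted p = 5.8e-06). ELOVL2, which lengthens polyunsaturated fatty acids, had 0.529, 0.489 and 0.382 FPKM in mutants, against 3.02, 3.81 and 3.99 FPKM in siblings (−2.08, SE 0.22, adjusted p = 1.9e-04). Neither gene's groups came near each other. ACSL5, which activates fatty acids, fell by 2.24 and the lipogenic regulator SREBF1 by 0.72, while the malic enzyme ME1, a source of NADPH, rose by 0.95. In all, 3 of 33 genes of fatty acid and triglyceride synthesis were lower and 1 higher, and the list median of −0.12 turned to 0.08 as TPM and 0.05 by total reads. The lower count was 2 without any of mutant libraries 1 and 2 or sibling libraries 1, 2 and 3.

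Some genes for burning fatty acids were higher, while most did not pass the test. Of 47 genes of fatty acid oxidation and ketogenesis 7 were higher and none lower by limma (3 lower at an unadjusted p under 0.05, 0 by voom), with a median of 0.23, and the higher count was 11 as TPM, 12 by total reads and 5 to 8 when 1 library was left out. ANGPTL4, an inhibitor of lipoprotein lipase known to rise in fasting, had 48.5, 51.5 and 45.01 FPKM in mutants, against 22.1, 20.4 and 18.1 FPKM in siblings (1.24, SE 0.18, adjusted p = 0.0018). cpt1ab, of the family that admits long-chain fatty acids to mitochondria, had 10.2, 11.7 and 8.60 FPKM in mutants, against 5.85, 5.23 and 4.58 FPKM in siblings (0.90, SE 0.16, adjusted p = 0.0056). Both genes had all mutant libraries above all sibling libraries. Subunits of the mitochondrial trifunctional protein, hadhaa and HADHA, rose by 1.03 and 0.78, and the isomerases ECI1 and ECI2 by 0.94 and 0.57. A list of 40 genes of fasting and muscle atrophy had no call by limma (5 higher and 4 lower at an unadjusted p under 0.05, 0 by voom). As TPM 3 were higher and by total reads 4, and its median of −0.04 turned to 0.16 as TPM. Among 51 genes of glycolysis and gluconeogenesis 6 were lower and 1 higher, and the median of −0.03 turned to 0.19 as TPM, with 10 higher and 4 lower. The higher count was 0 without sibling library 2 or 3, and the lower count 10 without sibling 5 dpf library 2 and 9 with library weights.

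**Figure D2:**
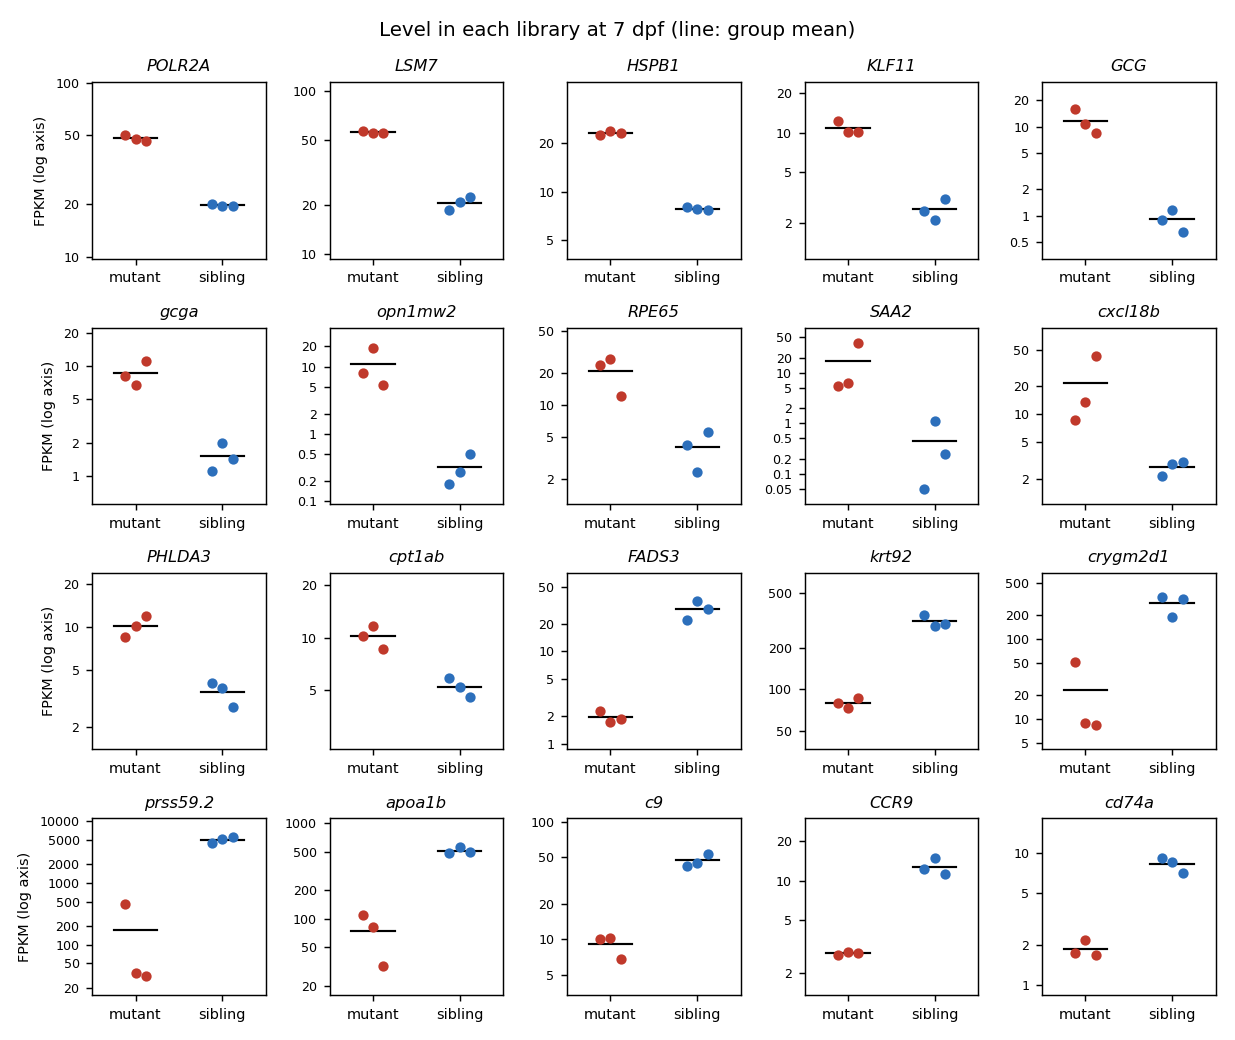
FPKM of 20 genes in the 3 mutant (red) and 3 sibling (blue) libraries of 7 dpf on log axes, with a line at each group mean and the SAA2 value of 0 FPKM in sibling library 1 drawn at 0.05. No panel shows an overlap between mutants and siblings, which for the largest changes, such as SAA2 and GCG, was a condition of being named. The mutant libraries of prss59.2, crygm2d1, SAA2 and cxcl18b differ among themselves by more than 4 times.

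Lens genes formed the other large group of falls. Of 50 lens genes 35 (70.0%) were lower and none higher by limma (0 higher at an unadjusted p under 0.05, 0 by voom), with a median of −2.62. The count was 18 without sibling library 3, 19 without mutant library 2 or mutant library 3, 21 without sibling library 1 and 22 with only the 6 libraries of 7 dpf. Crystallins are the proteins that fill lens fibre cells and make them clear. Of 21 gamma M2d crystallins, all on chromosome 9, 20 were lower, with fold changes from −4.09 to −2.20 and a median of −3.37. crygm2d1 (from 22338578 to 22339582 on chromosome 9 of GRCz11) had 51.1, 8.85 and 8.37 FPKM in mutants, against 330.2, 189 and 310.1 FPKM in siblings (−4.05, SE 0.59, adjusted p = 0.0015). Summed over these 21 copies, whose sequences are so alike that their reads may have been shared among them, the level was 542, 111 and 117 FPKM in mutants, against 2351, 1471 and 2744 FPKM in siblings. The groups of the sum lay apart, with mutant library 1 the highest of the mutants. Of 10 beta crystallins on 7 chromosomes 8 were lower (median −2.72), of 8 other gamma crystallins 3 (median −1.37), and of 10 further lens genes 4, including BFSP2, a filament protein of the lens fibre, at −2.19. The alpha crystallin CRYAA, a chaperone of the lens, was not called (−1.197, adjusted p = 0.25). The summed level of all 70 matched lens genes, tested or not, was 789, 169 and 178 FPKM in mutants, against 2918, 1855 and 3803 FPKM in siblings.

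In the same organ 7 genes of photoreceptors and the visual cycle passed the test as higher in mutants and 39 did not pass. Of 46 genes of photoreceptors and the visual cycle 7 were higher and none lower by limma (0 lower at an unadjusted p under 0.05, 0 by voom), 43 had a fold change above 0, and the median was 0.80. The count of higher genes depended on the libraries and the fit. It was 2 without mutant library 1, mutant library 2 or sibling library 1, 3 without sibling library 2, 15 without mutant library 3, 23 with library weights, 13 as TPM, 4 by voom and 2 with only the 6 libraries of 7 dpf. opn1mw2, a green-sensitive cone opsin (chromosome 6 of GRCz11 from 41186320 to 41189460), had 8.19, 19.0 and 5.30 FPKM in mutants, against 0.183, 0.278 and 0.515 FPKM in siblings (3.61, SE 0.50, adjusted p = 0.0011). RPE65, the isomerase that renews the visual pigment, had 23.7, 26.9 and 12.02 FPKM in mutants, against 4.21, 2.30 and 5.57 FPKM in siblings (2.23, SE 0.37, adjusted p = 0.0036). Groups of both genes lay apart. The short-wave opsin OPN1SW, outside that list, had 113, 115 and 37.8 FPKM in mutants, against 13.8, 9.83 and 26.3 FPKM in siblings (2.33, SE 0.51, adjusted p = 0.019, and 0.082 without mutant library 2). PDE6C, the cone phosphodiesterase, varied most, at 14.5, 5.56 and 1.89 FPKM in mutants, against 0.754, 0.391 and 1.29 FPKM in siblings (2.26, adjusted p = 0.031, and 0.12 without sibling library 2). For opn1mw2, RPE65, OPN1SW and PDE6C mutant library 3 was the lowest of the mutants, and sibling library 3 the highest of the siblings. The list median in the mutant libraries against the sibling mean was 0.99, 1.07 and 0.24.

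At 5 dpf the same 46 genes of photoreceptors and the visual cycle had a median of −0.89, with 1 higher and 2 lower, against 154 and 501 of all 21948 genes. In a test of the difference of the mutant effect between 7 and 5 dpf, none of the 46 had an adjusted p under 0.05 by limma or by voom. With library weights 3 had one, against 34 of all genes. At an unadjusted p under 0.05 there were 33 of the 46, and the share of all genes at that level is not given here. Neuronal genes of other kinds, a list of 60, had no call by limma at 7 dpf (13 higher and 3 lower at an unadjusted p under 0.05, 0 by voom) and a median of 0.35, which was 0.86 in mutant library 1, 0.23 in library 2 and −0.08 in library 3. Of 54 genes of neural progenitors and glia 1 was lower, ascl1a, a proneural factor, by 0.99 (adjusted p = 0.015, and 0.072 as TPM). That count was 0 without mutant library 2 or sibling library 2 or 3 and 2 without mutant library 1.

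Among immune genes those of T cells and the thymus were lower. Of 22 tested 9 (40.9%) were lower and none higher by limma (0 higher at an unadjusted p under 0.05, 0 by voom), and the median was −0.67. The count was 6 without sibling library 1 or sibling library 3, as TPM and with a filter at 1 FPKM. CCR9, a chemokine receptor that guides lymphocytes to thymus and gut (chromosome 2 of GRCz11 from 32796873 to 32799083), had 2.74, 2.91 and 2.84 FPKM in mutants, against 12.2, 14.7 and 11.2 FPKM in siblings (−1.98, SE 0.23, adjusted p = 3.3e-04). RAG1, which cuts antigen receptor genes in developing lymphocytes, had 1.11, 0.559 and 0.243 FPKM in mutants, against 3.51, 3.57 and 2.82 FPKM in siblings (−1.81, SE 0.25, adjusted p = 0.0011). Neither gene's libraries overlapped between the genotypes. The receptor chains il7r and il2rb fell by 1.302 and 1.05 and the T cell kinase ZAP70 by 1.01. il7r and il2rb passed the filter on low values only through the siblings, where il7r reached 1.999 FPKM and il2rb stayed under 1 FPKM.

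Macrophage genes were split. Of 33 tested 5 were higher and 3 lower, with a median of 0.27. The higher count was 1 without mutant library 2, sibling library 2 or sibling library 3, 2 without mutant library 3 and 3 without sibling library 1, and the lower count was 2 when any 1 library of 7 dpf was left out. The gene cd74a, for the chain that escorts class II molecules, was lower, at 1.75, 2.19 and 1.67 FPKM in mutants, against 9.18, 8.52 and 7.08 FPKM in siblings (−1.89, SE 0.21, adjusted p = 2.6e-04). Its copy cd74b had 2.19, 2.83 and 2.53 FPKM in mutants, against 8.86, 6.68 and 6.97 FPKM in siblings (−1.40, SE 0.15, adjusted p = 2.3e-04). The scavenger receptor marco went the other way, at 5.05, 7.17 and 8.56 FPKM in mutants, against 3.46, 2.65 and 2.90 FPKM in siblings (1.06, SE 0.22, adjusted p = 0.015, and 0.065 without sibling library 2). All 3 genes had separate groups. MFAP4, a macrophage marker in zebrafish, rose by 0.98 (adjusted p = 0.029, and 0.12 without mutant library 2), and the growth factor precursor grna by 0.67.

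A few genes of acute inflammation were higher in mutants, with mutant library 3 the highest. SAA2, a serum amyloid A of the acute phase (chromosome 7 of GRCz11 from 12950507 to 12956434), had 5.46, 6.35 and 39.0 FPKM in mutants, against 0, 1.08 and 0.243 FPKM in siblings. This was the largest increase of a gene with a symbol (3.81, SE 0.69, adjusted p = 0.0063, and 0.085 by voom). cxcl18b, a chemokine that draws neutrophils in zebrafish, had 8.71, 13.5 and 43.0 FPKM in mutants, against 2.14, 2.87 and 3.04 FPKM in siblings (2.49, SE 0.43, adjusted p = 0.0048). Both genes lay above the siblings in every mutant library. il1b, the classic inflammatory cytokine, had 0.967, 2.57 and 36.3 FPKM in mutants, against 0.226, 1.13 and 1.09 FPKM in siblings, with an overlap between the groups and an adjusted p of 0.18. The matrix protease MMP9 had 13.5, 17.2 and 106 FPKM in mutants, against 5.38, 5.97 and 6.92 FPKM in siblings, apart but not called (adjusted p = 0.12). Over the lists, neutrophil markers had 2 higher and 1 lower of 22, with medians in the mutant libraries of 0.03, 0.05 and 0.72 against the sibling mean. Acute phase, interferon and antimicrobial genes had 2 higher and 5 lower of 26, with medians of −0.11, −0.05 and 0.65. In both lists library 3 stood above the other mutants. The higher count of the neutrophil list was 1 without any of mutant libraries 2 and 3 or the sibling libraries, and that of the acute phase list was 1 without sibling library 1 or 2. Of 69 genes of cytokines, chemokines and their receptors 5 were higher and 7 lower, with a median of 0.07. The counts were 2 higher without mutant library 3 or sibling library 1, 3 higher without mutant library 2 or sibling library 3, 8 higher without mutant library 1, and 3 or 4 lower without any of mutant libraries 2 and 3 or the sibling libraries. The respiratory burst subunit cyba rose by 1.25 (adjusted p = 0.0060), and npsn, an astacin protease of zebrafish neutrophils, fell by 1.59 (adjusted p = 0.0035).

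A subunit gene of RNA polymerase II was among the most certain increases. POLR2A, the gene for the largest subunit (chromosome 12 of GRCz11 from 22560067 to 22573297), had 50.2, 47.6 and 45.9 FPKM in mutants, against 20.0, 19.5 and 19.7 FPKM in siblings (1.26, SE 0.10, adjusted p = 4.6e-05). LSM7, of the ring that binds U6 RNA for splicing, had 56.6, 55.7 and 55.2 FPKM in mutants, against 18.7, 20.8 and 22.4 FPKM in siblings (1.42, SE 0.13, adjusted p = 9.3e-05). KLF11, a zinc finger transcription factor, had 12.2, 10.1 and 10.1 FPKM in mutants, against 2.5, 2.13 and 3.09 FPKM in siblings (1.89, SE 0.19, adjusted p = 1.4e-04). The libraries of each group lay close together and far from the other group. POLR2A and LSM7 were also called higher at 5 dpf (1.05 and 0.90), and KLF11 was not (0.21, adjusted p = 0.68). Among 29 genes of TFIIH and nucleotide excision repair only RPA3, a subunit of the single-strand binding protein, was called, higher by 0.74 (adjusted p = 0.028), and the count was 0 without mutant library 1 or 2 or sibling library 2 or 3 and by voom, and 5 as TPM.

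PHLDA3, CCNG1 and BAX, which act in cell survival, the cell cycle and apoptosis, are given as single genes and stand for no group. PHLDA3, an inhibitor of the survival kinase Akt, had 8.55, 10.1 and 11.9 FPKM in mutants, against 4.03, 3.73 and 2.77 FPKM in siblings (1.42, SE 0.16, adjusted p = 2.3e-04). The cyclin gene CCNG1 rose by 0.95 and the apoptosis effector BAX by 0.79. These 3 genes had no overlap between the genotypes and were called in every alternative. The ubiquitin ligase gene mdm2 had 8.39, 7.39 and 7.29 FPKM in mutants, against 6.68, 5.47 and 6.99 FPKM in siblings (adjusted p = 0.58). Of 75 cell cycle and DNA replication genes 2 were higher and 1 lower, 60 had a fold change above 0 and the median was 0.27. At an unadjusted p under 0.05 there were 24 higher and 1 lower, and 10 were called higher with library weights and 7 as TPM. TYMS, which makes thymidylate, had 2.20, 2.19 and 2.30 FPKM in mutants, against 0.916, 0.805 and 1.00 FPKM in siblings (0.96, adjusted p = 0.010, and 0.11 by voom), and the higher count was 5 without mutant library 3. At 5 dpf 13 of these 75 genes were lower and none higher by limma.

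Chaperone genes of the heat shock response were higher in part. Of 39 genes 6 were higher and none lower by limma (2 lower at an unadjusted p under 0.05, 0 by voom), with a median of 0.26. The count was 1 without sibling library 2, 2 without mutant library 3, 3 without sibling library 3, 4 without mutant library 1 or sibling library 1, and 12 as TPM. HSPB1, a small heat shock protein (chromosome 5 of GRCz11 from 3568016 to 3584815), had 22.6, 23.7 and 23.0 FPKM in mutants, against 8.03, 7.77 and 7.71 FPKM in siblings (1.501, SE 0.15, adjusted p = 1.1e-04). The inducible chaperone gene hsp70.3 had 4.50, 5.04 and 9.51 FPKM in mutants, against 1.80, 0.555 and 0.890 FPKM in siblings (2.12, SE 0.42, adjusted p = 0.011, and 0.052 without sibling library 2). hsp70.1, also on chromosome 3, rose by 1.67 and hsp70l by 1.296, and copies of this family may share reads. Of 57 genes of ER stress and the integrated stress response 4 were higher (7.02%, against 2.04% of all genes) and 2 lower (3.51%, against 3.61%). The list was led by PSAT1, an enzyme of serine synthesis, at 5.74, 6.90 and 5.55 FPKM in mutants, against 1.36, 2.07 and 1.79 FPKM in siblings (1.56, SE 0.24, adjusted p = 0.0026). The higher count there was 1 without mutant library 2 and 2 without sibling library 1 or 2, and the lower count 0 without any 1 sibling library. HSPA5, the ER chaperone BiP, had 38.3, 46.7 and 82.9 FPKM in mutants, against 43.1, 38.0 and 44.8 FPKM in siblings, and the groups overlapped (adjusted p = 0.44).

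Of 48 redox and detoxification genes 8 were lower and 2 higher, while 27 had a fold change above 0 and the median was 0.05. As TPM 6 were lower and 9 higher. The higher count was 0 without mutant library 2 or 3 or sibling library 3, and 1 without sibling library 1 or 2. gpx4a, a peroxidase that removes lipid peroxides, had 107, 107 and 106 FPKM in mutants, against 310.2, 292 and 259 FPKM in siblings (−1.42, SE 0.13, adjusted p = 8.3e-05). The glutathione transferases gsta.1 and gsta.2, both on chromosome 13, fell by 1.37 and 1.33. In the vitamin pathways 7 of 37 genes were lower and none higher by limma (4 higher at an unadjusted p under 0.05, 0 by voom, 2 as TPM), with a median of −0.21. CYP2R1, which carries out the first step of vitamin D activation, had 1.22, 2.06 and 1.43 FPKM in mutants, against 6.32, 6.82 and 3.75 FPKM in siblings (−1.55, SE 0.22, adjusted p = 0.0015). Of single genes, DIO1, which activates thyroid hormone in liver, was lower by 1.32 (adjusted p = 0.0032) and dio3b, which inactivates the hormone, was higher by 1.05 (adjusted p = 0.0030). STAR, which brings cholesterol into mitochondria for steroid synthesis, rose by 1.00 (adjusted p = 0.0014).

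Muscle, skeleton and skin changed in few genes. Of 101 muscle genes 4 were higher and none lower by limma (8 lower at an unadjusted p under 0.05, 0 by voom, 6 without mutant library 3, 11 with library weights), and the median of −0.09 turned to 0.11 as TPM and 0.08 by total reads. ACTA1, a muscle actin copy on chromosome 13, had 499, 454 and 429 FPKM in mutants, against 255, 235 and 134 FPKM in siblings (1.196, SE 0.25, adjusted p = 0.014), and myoglobin (mb) rose by 0.93. Of 68 collagen and cartilage genes 3 were higher and 1 lower, and the median was 0.11. The count of higher genes was 2 without mutant library 2 or 3 or sibling library 2 or 3 and 9 as TPM, and that of lower genes 0 without mutant library 3 or sibling library 1 or 2. MATN3, a matrilin of cartilage, had 4.91, 6.85 and 8.37 FPKM in mutants, against 1.85, 1.56 and 0.740 FPKM in siblings (1.96, SE 0.23, adjusted p = 4.0e-04). COL10A1, the collagen of maturing cartilage and bone, had 22.9, 24.3 and 13.4 FPKM in mutants, against 41.4, 48.6 and 34.7 FPKM in siblings (−1.06, adjusted p = 0.022, and 0.095 without sibling library 2). Both genes had separate groups. Of 63 keratin and skin genes 5 were lower and 1 higher, with a median of −0.11 that turned to 0.08 as TPM, and the lower count was 3 without mutant library 2 or 3 or any 1 sibling library. The keratin gene krt92 (chromosome 19 of GRCz11 from 5349656 to 5352199) was the most certain of them, at 78.7, 72.9 and 86.3 FPKM in mutants, against 349, 286 and 297 FPKM in siblings (−1.96, SE 0.13, adjusted p = 1.5e-05).

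Some genes of salt transport and pigment were lower. Of 56 genes of ionocytes, kidney and osmoregulation 5 were lower (8.93%, against 3.61% of all genes) and none higher by limma. At an unadjusted p under 0.05 there were 8 higher, by voom 1 and as TPM 2. The median of −0.13 turned to 0.01 as TPM. slc12a10.1, a sodium chloride carrier of zebrafish skin ionocytes, had 0.533, 1.09 and 0.851 FPKM in mutants, against 6.85, 5.51 and 2.88 FPKM in siblings (−2.02, SE 0.28, adjusted p = 0.0011). atp1a1a.4, a sodium pump subunit, had 23.1, 17.8 and 21.5 FPKM in mutants, against 77.5, 65.0 and 59.1 FPKM in siblings (−1.67, SE 0.16, adjusted p = 8.5e-05). Mutants lay below siblings in every library for both. Of 31 pigment cell genes 5 were lower (16.1%, against 3.61% of all genes) and 1 higher (3.23%, against 2.04%). The median of −0.11 turned to 0.10 as TPM. The lower count was 1 as TPM, 2 without mutant library 1 or 3 or sibling library 1 or 2, and 3 without mutant library 2. GPNMB, a protein of pigment cells and macrophages, had 4.62, 3.63 and 3.94 FPKM in mutants, against 12.3, 11.4 and 10.1 FPKM in siblings (−1.37, SE 0.18, adjusted p = 9.4e-04). pmelb, of the family that builds melanosome fibrils, had 6.74, 10.5 and 7.21 FPKM in mutants, against 1.11, 1.58 and 3.54 FPKM in siblings (1.84, SE 0.29, adjusted p = 0.0027).

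**Figure D3:**
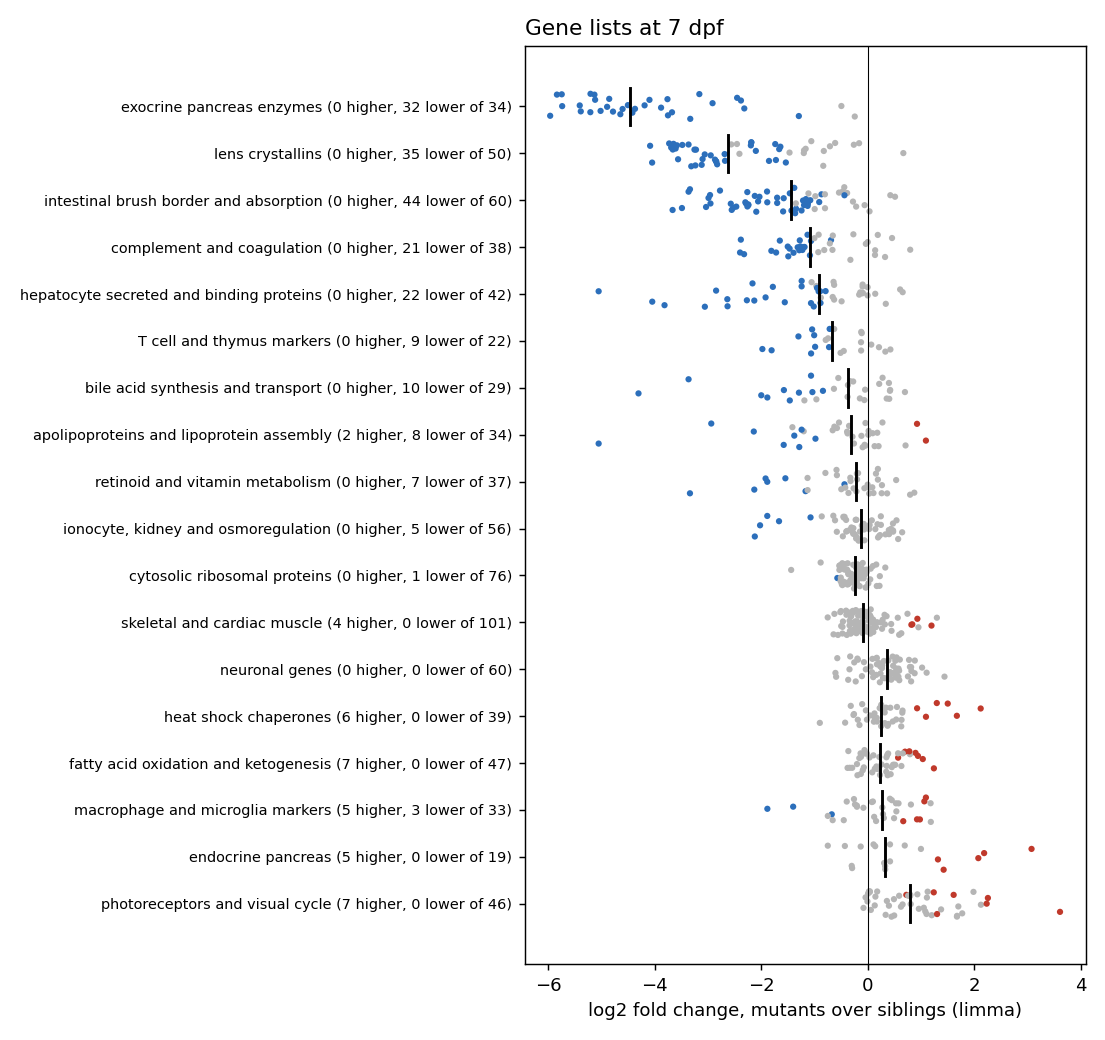
Rows are gene lists, with each gene as a point at its log2 fold change of mutants over siblings at 7 dpf (red higher, blue lower, grey not called) and a black bar at the list median. Exocrine enzymes (median −4.46) and lens genes (−2.62) lie farthest to the left and photoreceptor genes (0.80) farthest to the right among the lists drawn.

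Several lists of common cell machinery had few calls or none. Over all 21948 genes tested 4453 had an unadjusted p under 0.05 in either direction. The 13 genes of the mitochondrial genome had none by limma (0 at an unadjusted p under 0.05 in either direction, 0 by voom) and a median of 0.10. Nuclear genes of oxidative phosphorylation had 1 higher and 1 lower of 80, and 16 higher and none lower as TPM. Without mutant library 1 the count was 4 higher, without mutant library 2 or 3 or sibling library 2 or 3 it was 0 higher, and without any 1 mutant library or sibling library 1 it was 0 lower. Of 76 cytosolic ribosomal proteins 1 was lower, and 17 were lower at an unadjusted p under 0.05. Their median of −0.24 was −0.02 as TPM, and the mutant libraries read −0.60, −0.31 and 0.12 against the sibling mean. The lower count was 7 without mutant library 3, 0 without any other 1 library of 7 dpf and 16 with library weights. Of 98 nucleolar genes for making ribosomes 1 was higher, RPF1, by 1.18 (adjusted p = 0.0087). FBL, the fibrillarin of the nucleolus, had 80.3, 80.2 and 102 FPKM in mutants, against 66.8, 62.1 and 52.7 FPKM in siblings, apart but not called (adjusted p = 0.14). The proteasome list of 51 had none by limma (5 higher and 2 lower at an unadjusted p under 0.05, 0 by voom), and 5 higher as TPM and 3 by total reads. Its median was 0.52 in mutant library 3, against −0.01 and −0.21 in libraries 1 and 2. Of 71 genes of autophagy and lysosomes 3 were lower and 1 higher, all 4 of them cathepsins, the proteases of lysosomes. As TPM 6 were higher and 2 lower, and by total reads 8 and 3. ctsla had 391, 431 and 452 FPKM in mutants, against 217, 209.6 and 200.3 FPKM in siblings (1.02, adjusted p = 0.0051). ctsl.1 had 23.7, 27.2 and 29.2 FPKM in mutants, against 126, 73.2 and 62.8 FPKM in siblings (−1.63, adjusted p = 0.0062). So cathepsin genes with similar names lay apart in opposite directions. The 38 genes of the circadian clock had no call by limma (2 lower at an unadjusted p under 0.05, 0 by voom), and neither had 16 swim bladder genes (4 lower at an unadjusted p under 0.05, 0 by voom).

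The mutant pools differed among themselves more than the sibling pools did. The median SD of a gene on the log2 scale was 0.236 over the mutant libraries and 0.193 over the sibling libraries. Library 1 kept the highest medians of the exocrine enzyme list (−3.16, against −4.94 and −5.20 in libraries 2 and 3) and the lens list (−1.44, against −2.96 and −3.06). Not every falling list did so. For bile acid genes library 1 was the lowest (−0.69, against −0.35 and −0.41), and for complement and coagulation library 2 was the highest (−0.85, against −1.05 and −1.19 in libraries 1 and 3). Library 3 was lowest for photoreceptor genes and highest for neutrophil, acute phase and proteasome genes. The lists of liver and T cell genes were more even, with hepatocyte medians of −0.80, −0.82 and −1.18 and T cell medians of −0.69, −0.59 and −0.76 in mutant libraries 1, 2 and 3. Whether the pools differed in stage or health was not tested.

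**Figure D4:**
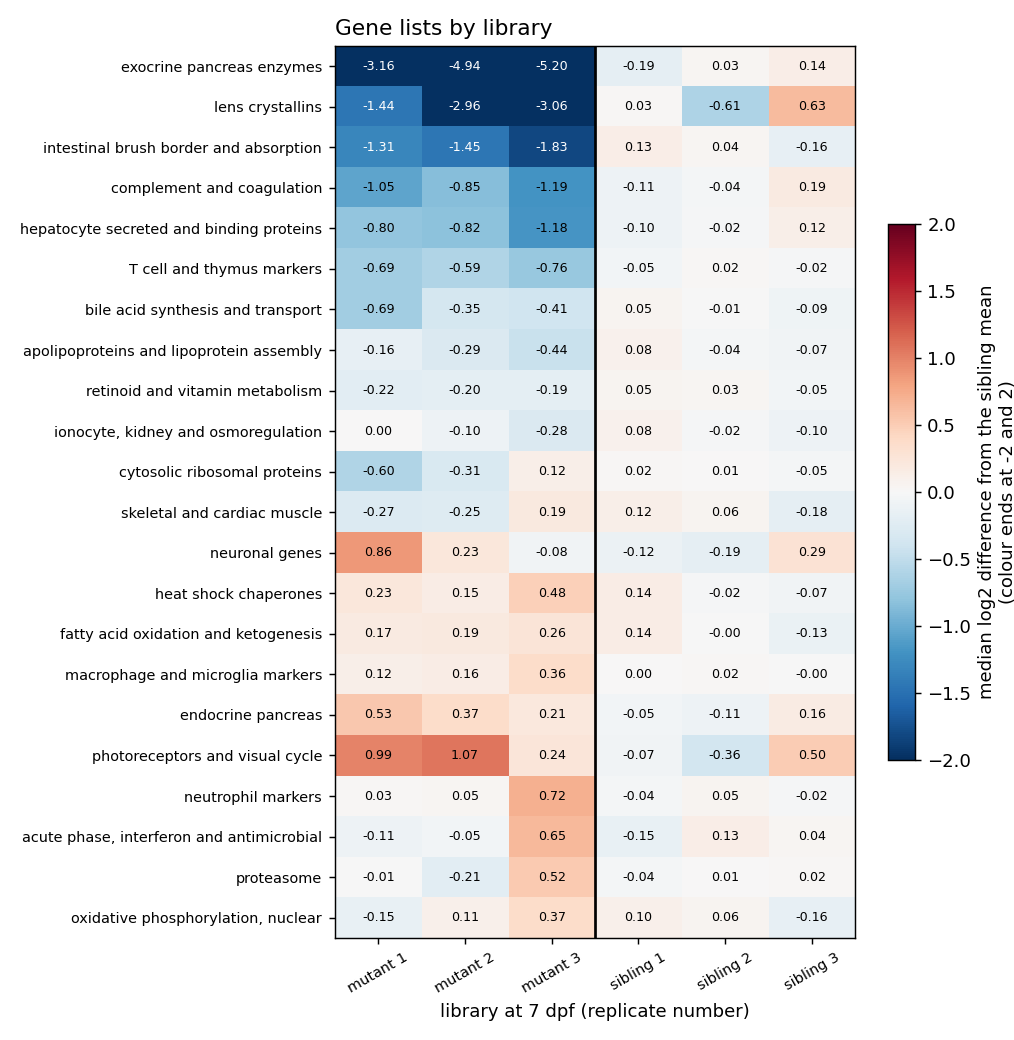
Median log2 level of each gene list in each library of 7 dpf relative to the sibling mean, mutant libraries 1 to 3 left of sibling libraries 1 to 3. Exocrine enzymes read −3.16, −4.94 and −5.20 in the mutants, photoreceptor genes 0.99, 1.07 and 0.24, and neutrophil genes 0.03, 0.05 and 0.72.

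Falls at 7 dpf were more often called at 5 dpf than rises were. At 5 dpf 154 of the same 21948 genes were higher and 501 lower in mutants (2.98% called in either direction). Of the 792 lower genes of 7 dpf 341 (43.1%) were also called lower at 5 dpf, and of the 448 higher genes 64 (14.3%) were also called higher. The median fold change of the 792 was −1.24 at 7 dpf and −0.74 at 5 dpf, and that of the 448 was 0.93 and 0.28. These shares compare calls, and the medians are of genes picked by their values at 7 dpf. Neither is a test of a difference between the ages. The difference itself was called for 4 genes (0.0182%). Among them PPP1R3C, which guides glycogen synthesis, had 10.8, 9.38 and 9.49 FPKM in mutants, against 24.2, 21.9 and 23.1 FPKM in siblings at 7 dpf (−1.18, SE 0.12, adjusted p = 1.5e-04), and a fold change of 0.07 at 5 dpf. c9 had −2.32 at 7 dpf and −0.44 at 5 dpf. jac9, a jacalin gene that passed the filter at 7 dpf only through the mutants, had 0.828, 1.72 and 1.18 FPKM in mutants, against 0.0582, 0.118 and 0.119 FPKM in siblings (1.51), and had −1.55 at 5 dpf. Each difference had an adjusted p of 0.049, and their number was 0 to 34 under the alternatives.

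The mutants were homozygous for the mutant allele and so for the stretch linked to it, while the siblings were not. Effects of variants in that stretch cannot be told apart from those of the mutation. The share of lower genes was also taken by distance from ercc2. Within 5 Mb of it on chromosome 15, 22 of 146 tested genes were lower (15.1%, against 3.61% of all genes) and 4 higher. Within 10 Mb 28 of 267 were lower (10.5%), and beyond 10 Mb on the same chromosome 16 of 422 (3.79%). Leaving out 1 library in turn left 14 to 22 lower genes within 5 Mb, and TPM 18. At 5 dpf 15 genes (10.3%, against 2.28% of all genes) were lower there. In 11 of the 22 every mutant library was under 0.5 FPKM, so that they passed the filter on low values only through the siblings. Without genes of that kind 11 of 133 were lower within 5 Mb (8.27%), against 684 of 21757 over all genes (3.14%), a comparison chosen after seeing the data. Of genes chosen after their values were seen, PHF12 and chp2 are of that kind. PHF12 (from 24549054 to 24563042), which encodes a zinc finger protein, had 0.0520, 0.0248 and 0.0450 FPKM in mutants, against 0.885, 1.61 and 1.29 FPKM in siblings. chp2 (from 20406143 to 20412286), which encodes a calcineurin-like protein, had 0.473, 0.129 and 0.468 FPKM in mutants, against 5.61, 3.15 and 6.49 FPKM in siblings. METTL16 (from 25214171 to 25269028), an RNA methyltransferase, went the other way, at 5.68, 5.15 and 5.84 FPKM in mutants, against 3.30, 2.51 and 2.08 FPKM in siblings (0.97, adjusted p = 0.0059). il15l, cox7a1 and lim2.3, counted above among cytokines, oxidative phosphorylation and lens genes, lie in this stretch, and so does ckmb. Apart from chromosome 9, where 46 of 677 genes were lower (6.79%) and 22 of the 46 were gamma crystallins, no other chromosome held as high a share of lower genes as chromosome 15 (6.38%), and the rest of the numbered chromosomes had 2.18% to 4.54%.

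**Figure D5:**
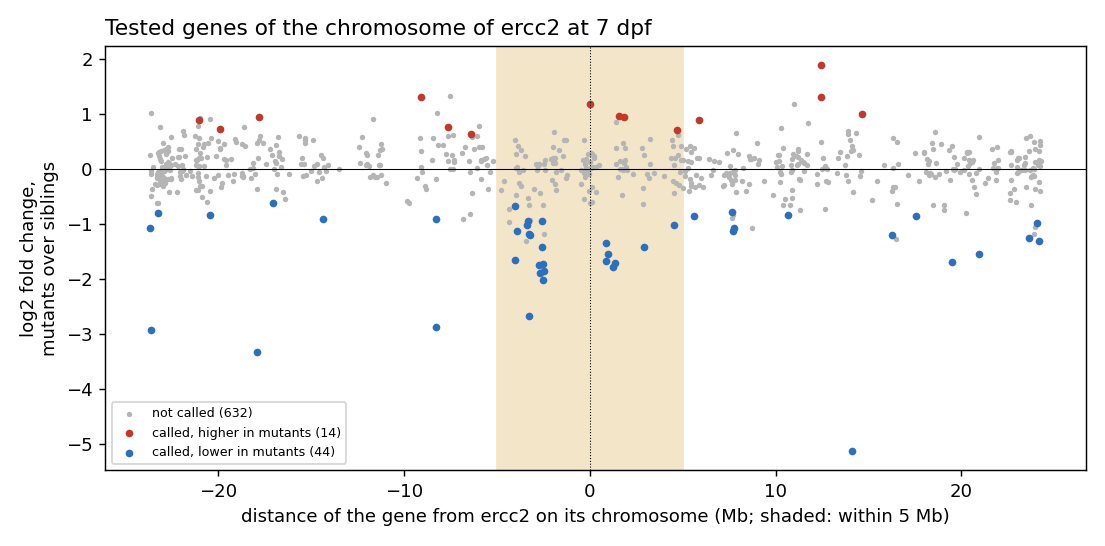
Log2 fold change of mutants over siblings for each tested gene of chromosome 15, placed by its distance from ercc2 in megabases (Mb). Called lower genes (blue) crowd within 5 Mb of ercc2, where 22 of 146 genes are lower and 4 higher (red).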

How the data were processed

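Whole larvae were lysed in pools of 30, and 3 libraries a genotype were sequenced at 7 dpf and 3 at 5 dpf. The authors deposited FPKM values per gene and library, with gene lengths, from reads aligned to GRCz11 with HISAT2 2.0.5 (per the submitters' processing notes). The counter, its strand setting, its treatment of reads that match several copies and the annotation release are named in none of the sources read. The values checked, which left out the genes of highest level, were all whole multiples of what 1 read was worth, within 0.01 read. Depth could be recovered in this way, and 100% of those values came out whole. In every library the scaling factor matched the median ratio of its genes to their geometric mean over libraries, and not its recovered reads. Sibling library 1 of 7 dpf held 14902928 recovered reads and was scaled as if by 13177744. Genes that reached 0.5 FPKM in 3 or more libraries of 7 dpf were tested on log2(FPKM + 0.5) with limma 3.58.1 in R 4.3.3, in 1 model of 4 groups over 12 libraries with 8 residual degrees of freedom and no replicate block. p-values were adjusted by Benjamini-Hochberg over all 21948 genes, at a threshold of 0.05. The test was tried on simulated data first. Alternatives changed the pseudocount, filter, scaling, libraries or block, or ran voom on the recovered reads. Scaling by total reads was chosen after seeing the data.

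The 49 gene lists and the members described were chosen with earlier results of these data known. Of 2496 listed symbols 179 found no gene, and 288 of 2436 identifiers matched by family name. Symbols in capitals are human-style names, which several zebrafish copies can share. Named were ercc2, the largest and most certain called changes, the genes of highest level, genes the study assayed by other methods, and the called members of largest change in each list, 5 at most. The largest changes were picked among called genes without overlap between the groups and with a mean of at least 5 FPKM in the higher group. For those genes the lack of overlap was fixed by the choice. Any other gene was chosen after its values were seen. The values of library pairs were compared first, and 0 libraries were duplicates. Promoter motifs were not analysed here. Results that rest on certain genes are not reported here.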

Additional observations from a re-analysis of the deposited data

Results flagged for a closer look

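For 4 genes the effect of the mutation differed between 7 and 5 dpf in a test of the difference itself (limma, Benjamini-Hochberg adjusted p = 0.049 for each). For c9 the log2 fold change was −2.32 at 7 dpf and −0.44 at 5 dpf, a difference of −1.89. For PPP1R3C it was −1.18 at 7 dpf and 0.07 at 5 dpf, a difference of −1.25. For jac9, which passed the filter on low values only through the mutants of 7 dpf, it was 1.51 at 7 dpf and −1.55 at 5 dpf, a difference of 3.07. The fourth was a short gene model of 240 bases with no symbol, on a contig outside the numbered chromosomes. It had 0 reads in all mutant libraries and 14 reads in the sibling libraries of 7 dpf, and passed the filter on low values only through those siblings. Its groups did not differ at 5 dpf, so its difference of −1.99 is its fold change at 7 dpf. The number of genes with such a difference was 34 with library weights, 25 without mutant library 3, and 0 as TPM, by total reads, by voom, with the replicate block and with a filter at 1 FPKM. Other settings that gave 0 included a pseudocount of 0.1 and leaving out mutant library 2 or sibling library 2 of 7 dpf.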

How the results depend on the processing

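The split of called genes depended most on the scaling. As TPM it was 1431 higher and 513 lower, by total reads 1362 and 569, and with library weights 1087 and 1426, against 448 and 792. Leaving out 1 library gave 218 to 511 higher and 529 to 856 lower genes, with 218 and 535 without mutant library 2, 264 and 545 without sibling library 1, 243 and 529 without sibling library 2, and 233 and 553 without sibling library 3. The cause was not tested. Of 170 named and called genes 112 kept their call under all alternatives that held them, and from 0 (library weights) to 46 (without sibling library 2) lost it. None that was called turned sign. With the replicate block 494 genes were higher and 787 lower, and 13 named genes lost their call. Same-numbered libraries of 7 dpf had deviations from their group means that correlated at 0.059, 0.087 and −0.022. Pairs of other numbers ranged from −0.133 to 0.064. With 3 pools a side these values cannot show whether the numbers paired the samples. The promoter motif search was not run. With 3 pools a side, and siblings of mixed genotype, small changes in genes of low level could not be told from the spread between pools.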

Other observations

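Regulators of blood and growth outside the lists described so far changed in few genes. Of 55 immediate early genes 2 were lower (3.64%, against 3.61% of all genes) and 1 higher (1.82%, against 2.04%). Their median was −0.34 at 7 dpf and 0.53 at 5 dpf. The lower count was 1 without sibling library 2 and 4 with the replicate block or with only the 6 libraries of 7 dpf, and the higher count was 2 without mutant library 1. MYC, a driver of growth, had 20.9, 19.4 and 22.9 FPKM in mutants, against 43.9, 45.2 and 31.5 FPKM in siblings (−0.90, adjusted p = 0.0051 by limma), and the nuclear receptor gene NR4A1 fell by 1.43 (adjusted p = 0.011). Erythroid and heme genes had 2 lower of 37 with a median of −0.24, and the lower count was 0 without sibling library 2, 1 without mutant library 2 or sibling library 3, and 7 with library weights. Blood stem and progenitor regulators had 3 lower of 29, with a median of −0.19 that turned to 0.02 as TPM. That count was 0 without mutant library 2 or sibling library 1 or 2 and as TPM, and 1 without mutant library 1 or sibling library 3. Of 22 cholesterol synthesis genes 1 was higher (HSD17B7), with a median of 0.04, and 0 were without mutant library 2 or 3 or sibling library 1 or 3. Of 31 matrix metalloproteases and inhibitors 1 was higher (adam8a), with a median of 0.22, and 0 were without any of mutant libraries 2 and 3 or the sibling libraries. Pituitary and peripheral hormone genes had 3 higher and 2 lower of 39, with a median of 0.01, and the higher count was 2 and the lower count 1 without mutant library 2 or 3 or sibling library 1 or 3. Of 45 genes that the study assayed by other methods 3 were higher and 11 lower. Their median of −0.14 turned to 0.06 as TPM, and a list chosen on these larvae is not independent evidence of its direction.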
